A study of Mus musculus with 2 samples.

Results

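The MHC class II high C1q macrophages described here were cells of injured mouse quadriceps that carried abundant RNA of both the class II antigen-presenting molecules and the complement component C1q. A cell was taken as a member when Cd74 and the chain genes H2-Aa, H2-Eb1 and H2-Ab1 together made up at least 0.5% of its UMIs (unique molecular identifiers, 1 for each captured RNA molecule), when C1qa and C1qb together had at least 5 UMIs, when neither Cd209a nor Ccr7 had a UMI, and when Cd163 and Lyve1 together had fewer than 3. There were 302 members among 11362 cells, 156 of 6735 on day 1 and 146 of 4627 on day 3. The study sequenced single cells from the quadriceps of wild-type C57BL/6J male mice, 14 weeks old, after injection of 100 µL of 1.2% barium chloride, which kills myofibers and starts a wave of inflammation and regeneration. One droplet library was made 1 day and another 3 days after the injury, each from cells that were sorted by scatter, pooled from 5 mice and then frozen, so that each day is 1 sample. Myofibers were not part of the cells measured. An uninjured muscle was not analysed here, so that a value of day 1 or day 3 has no baseline in healthy tissue.

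MHC class II molecules present peptides from engulfed proteins to CD4+ T cells. Their α and β chains are assembled on the invariant chain, encoded by Cd74, and the H2-DM molecule then exchanges the remnant of that chain for a peptide. Transcription of these genes depends on the coactivator CIITA, which has no DNA-binding domain of its own and is recruited by factors that bind the conserved X and Y boxes upstream of each class II gene. C1q is the recognition subunit of the classical complement pathway and binds dying cells, and in most tissues macrophages are its main source. In regenerating muscle, macrophages clear necrotic fibers and are supplied both by blood monocytes and by cells that were resident before the injury.

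The promoters of class II genes are shown because the members were chosen by the RNA of these genes. A further reason is H2-DMa and H2-DMb1, which were not part of the choice. Among class II presentation genes with enough UMIs, these were the ones at least 2-fold higher in the members than in other C1q macrophages in both libraries. Ciita had too few UMIs on day 1 to be counted there. The sequences are from RefSeq on build GRCm38.p6, and each covers the 150 bases before the gene's annotated start, written 5′ to 3′ on the gene's strand. Capitals mark the letters TGATTGG, the core of the Y box, and ACNGATG, a part of the X box. The H2-Aa stretch lies at chr17:34287824-34287973 on the minus strand, that of H2-Eb1 at chr17:34305717-34305866 on the plus strand and that of H2-DMb1 at chr17:34153041-34153190 on the plus strand.
H2-Aa: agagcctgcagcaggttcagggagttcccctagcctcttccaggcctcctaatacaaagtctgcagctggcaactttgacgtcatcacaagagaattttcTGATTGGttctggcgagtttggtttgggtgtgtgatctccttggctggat
H2-Eb1: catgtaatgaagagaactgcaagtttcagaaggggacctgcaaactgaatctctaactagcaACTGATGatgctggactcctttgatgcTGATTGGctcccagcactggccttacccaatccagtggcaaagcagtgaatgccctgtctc
H2-DMb1: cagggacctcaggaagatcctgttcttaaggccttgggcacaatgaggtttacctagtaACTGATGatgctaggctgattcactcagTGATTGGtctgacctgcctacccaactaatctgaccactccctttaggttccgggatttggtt
The last letter of the Y box lay 44 bases upstream of the start in H2-Aa, 55 in H2-Eb1 and 57 in H2-DMb1. In H2-Eb1 and H2-DMb1 the X box letters stood upstream of them on the same strand, with 20 and 21 bases between the 2 matches. Of 8 H2 genes of the class II region that were looked up, 7 had a promoter window of 250 bases before to 50 bases after the start, 6 of these held TGATTGG on either strand (H2-Aa, H2-Eb1, H2-DMb1, H2-DMb2, H2-Oa and H2-Ob), and 5 held both sets of letters. H2-DMb2 also had the 2 matches on the same strand with 21 bases between. In H2-Oa 85 bases lay between them, and in H2-Aa 175, with ACNGATG on the opposite strand and outside the stretch shown. Over all 32851 windows of this length, 7.82% held TGATTGG, 9.85% held ACNGATG and 0.703% held both, at any distance and on either strand. Neither set of letters was in the windows of H2-DMa, C1qb, C1qc, Itgax or Clec4b1. A match is a description of the letters and not evidence of binding.

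The day 1 library held 74852240 UMIs and the day 3 library 102565783. The members were sequenced to nearly the same depth on both days, with a median of 11795 UMIs and 2747 genes per cell on day 1 and 12163.5 UMIs and 3140 genes on day 3. The mitochondrial limit removed 7.02% of the cells called on day 1 and 30.3% of those on day 3, and mitochondrial RNA in the members had a median of 2.42% and 4.09%. No cell barcode occurred in both libraries. The barcode list of the day 3 file was longer than that of the day 1 file, 6794880 against 737280 entries. The study names the same library chemistry for its samples but lists chip kits of different versions as alternatives. It does not say which sample had which, so that a difference in kit is possible but not stated. Any such difference cannot be told apart from the day of the injury. Because each day is 1 library, no test between days or between groups of cells was possible, and every interval given here is a 95% interval that covers counting error only. Levels are CPM, the UMIs of a gene per 1000000 UMIs summed over a group of cells, with exact Poisson intervals, and shares of cells have exact Clopper-Pearson intervals.

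Members made up 2.32% of the cells on day 1 (1.97 to 2.7%) and 3.16% on day 3 (2.67 to 3.7%). The share of all cells was higher on day 3, whereas the share among C1q macrophages was lower, because cells with C1q were more frequent on day 3. Of the cells with at least 5 UMIs of C1qa and C1qb, 12.1% were members on day 1 and 6.32% on day 3. Of the cells that passed the class II limit, 32.6% and 30.8% were members. When every cell was thinned to 3000 UMIs before the rule was applied, the order of the days was lost, with members at 2.7% on day 1 and 2.64% on day 3. When cells were called by a depth limit set at 10% of the 99th percentile in place of a fixed number of barcodes, the shares were 3.44% and 3.49%.

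Marker genes of macrophages and dendritic cells that the rule did not use were counted in the members. At least 1 UMI of Adgre1 (F4/80), Fcgr1 (CD64) or Csf1r (the receptor for CSF1) was found in 155 of 156 members on day 1 and in 144 of 146 on day 3, and all 3 genes were found in 63.5% and 77.4% of members, beside 74.4% and 87.6% of the C1q macrophages low in class II. A stricter gate, with log-normalised levels of Adgre1 and Fcgr1 of at least 1 each and no UMI of Pdgfra or Ly6a, was passed by 25.6% and 20.5% of members and by 41.1% and 34.5% of the low cells. The summed level of 18 genes of macrophage identity was 21122 CPM in the members on day 1 (20933 to 21313) and 20677 on day 3 (20485 to 20871), beside 20564 and 27686 in the low cells. None of these 18 genes was absent from the members. A UMI of Flt3, Zbtb46, Xcr1 or Clec9a, which define conventional dendritic cells, was seen in 2.56% of members on day 1 and 6.16% on day 3, and in 1.61% and 1.85% of low cells. A UMI of Klrd1, Cd7 or Dpp4 was seen in 1.92% and 7.53% of members and in 0.859% and 1.8% of low cells. The summed level of the 21 genes of the dendritic cell list was 533 CPM on day 1 and 467 on day 3, against 1469 and 2026 in the Cd209a cells, and 2 and 3 of its genes were at 0. Of the 6 genes of that list with enough UMIs, Batf3, Tnip3 and Itgax were at least 2-fold higher in members than in low cells on both days, 1 (Fscn1) was lower on both, and 4 were higher on day 3. Nearly all members thus carried RNA of at least 1 macrophage marker. That is a low bar, since Cd209a cells also carried RNA of Csf1r and Fcgr1, and their share was not counted. RNA of dendritic cell genes was more frequent in the members than in low cells on day 3. The part of dendritic cells in the results was not tested.

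Markers of other cells were present at low levels in some members. At least 10 UMIs of the neutrophil genes S100a8 and S100a9 were found in 11 of 156 members on day 1 and in 0 of 146 on day 3 (exact interval 0 to 2.49%). At least 10 UMIs of the collagen genes Col1a1, Col1a2 and Col3a1 with Dcn were found in 5 members on each day. T cell genes (Cd3d, Cd3e or Cd3g) had a UMI in 1 member on each day. Doublets were not removed: the caller Scrublet marked 1 cell of day 1 and 0 of day 3 at its own threshold, which shows that it had not worked. Its highest scores would have removed 12 members (7.69%) on day 1 and 11 (7.53%) on day 3. The shares were 10.5% and 5.06% of the C1q macrophages low in class II, and 5.39% and 3.7% of all cells, so that members were above all cells on both days. The part of doublets and of free RNA in the values was not tested.

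**Figure D1:**
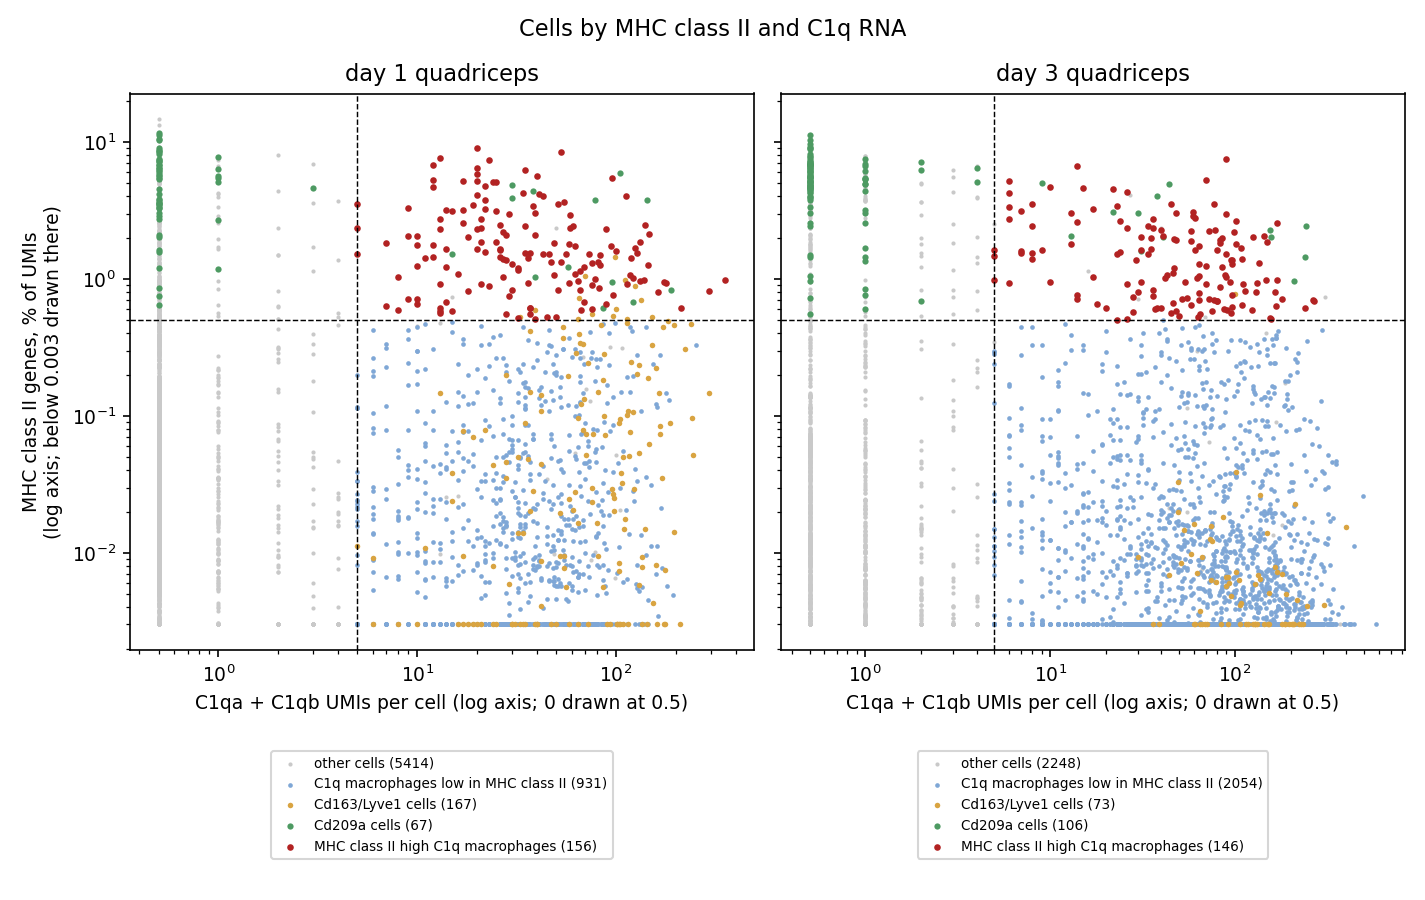
Each point is 1 cell of the day 1 (left) or day 3 (right) library, with C1qa and C1qb UMIs on the x axis and the percent of UMIs from Cd74 and the 3 chain genes on the y axis, both on log axes, and the dashed lines are the limits of 5 UMIs and 0.5%. The 156 and 146 members (red) continue upward from the 931 and 2054 C1q macrophages low in class II (blue) without a gap, and most Cd209a cells (green) lie at 0 or 1 UMI of C1q.

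The genes used to choose the members are given as a description. In the members H2-Aa was at 2724 CPM on day 1 (2656 to 2793) and 2510 on day 3 (2443 to 2578), H2-Ab1 at 2354 and 2191, and H2-Eb1 at 2219 and 2295. Cd74 was at 11215 CPM on day 1 (11077 to 11355) and 7744 on day 3 (7627 to 7863). On the CPM scale the 3 chain genes thus differed by less than 1.1-fold between the days, whereas Cd74 was 0.691 times as high on day 3. The members of both days had passed the same limit on the sum of these genes and Cd74, and the part of the rule in this likeness was not tested. The ratios also depend on the scaling. With edgeR's TMM scaling the median log2 ratio of day 3 over day 1 in the members was -0.13 in place of 0.23, so that these genes would be lower on day 3 than given here. C1qa was at 1270 and 1682 CPM and C1qb at 2223 and 2686. C1qc, the third chain of C1q and not part of the rule, was at 957 CPM on day 1 (917 to 998) and 1198 on day 3 (1152 to 1245), and had a UMI in 98.1% and 97.9% of members.

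Class II RNA varied widely among the members. It took a median of 1.53% of UMIs on day 1 (lowest 0.511%, highest 9.08%) and 1.3% on day 3 (0.505% to 7.51%). In the 931 and 2054 C1q macrophages that met every clause but the class II limit, the medians were 0.00937% and 0.00432%, and 35% and 41.7% of those cells had no class II UMI at all. The limit of 0.5% did not fall in a gap. Just outside it, between 0.4% and 0.5%, lay 16 cells on day 1 and 14 on day 3, and just inside it, between 0.5% and 0.6%, lay 12 and 14. H2-DMb1 was at 38.2 CPM just outside and 57.9 just inside on day 1, and at 91.8 and 85.5 on day 3.

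The genes of peptide loading followed the class II genes. H2-DMb1 (ENSMUSG00000079547), the β chain of H2-DM, was at 277 CPM in the members on day 1 (256 to 300) and 242 on day 3 (222 to 264), against 15 (13 to 17.2) and 29.7 (28.1 to 31.4) in C1q macrophages low in class II. The log2 ratios were 4.20 (3.98 to 4.44) and 3.03 (2.88 to 3.18). H2-DMa (ENSMUSG00000037649), the α chain, was at 163 CPM on day 1 (147 to 181) and 252 on day 3 (231 to 274), against 35.3 and 58.8. Both chains were among the 30 of 8830 genes (0.34%) that were at least 2-fold higher in the members in both libraries. H2-DMb1 has a near-identical neighbor, H2-DMb2, and reads may be split between them. H2-DMb2 was at 3.11 and 4.68 CPM in the members.

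Ciita, the coactivator of the class II genes, was at 6.67 CPM in the members on day 1 (3.73 to 11) and 23.4 on day 3 (17.4 to 30.8), against 0.292 and 0.964 in the low cells. Its UMIs came from 10 members on day 1 and 32 on day 3. H2-Oa and H2-Ob, which form the inhibitor H2-DO in B cells and some dendritic cells, were near the limit of detection, at 4 and 2.22 CPM on day 1 and 5.61 and 3.27 on day 3. Rfx5, a subunit of the complex that binds the X box, was at 1.78 CPM in members and 2.55 in low cells on day 1, and at 3.27 and 4 on day 3, within overlapping intervals.

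The enzymes that cut antigens for loading did not separate the groups in the same way. Ctss, the protease that removes the invariant chain, was at 1190 CPM in members against 941 in low cells on day 1 and at 1919 against 1911 on day 3. Ifi30, a thiol reductase of lysosomes, was at 682 against 569 and at 1172 against 734, both less than 2-fold apart. Lgmn, an asparaginyl endopeptidase, was lower in the members on both days, at 1690 against 2081 and 1386 against 2146. Of the 13 genes of class II presentation outside the rule that had enough UMIs, 2 were at least 2-fold higher in the members on both days (H2-DMa and H2-DMb1) and none was lower on both, while Ctsl and Ctsd were at least 2-fold lower on day 3 only.

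The share of cells with a UMI gave the same picture at equal depth. H2-DMb1 was detected in 67.3% of members on day 1 and 81.5% on day 3, against 15% and 39.7% of the low cells. After each cell was thinned to 3000 UMIs, which left out 2 members on each day and 8 and 20 low cells, the shares were 43.5% (35.5 to 51.7%) and 53.5% (45 to 61.8%) in members and 3.9% and 10.5% in low cells. In the Pdgfra cells, stromal progenitors with at least 2 UMIs of Pdgfra and none of the leukocyte gene Ptprc, which should lack the gene and had median depths of 27546 and 23928.5 UMIs, 1.13% and 4.88% had a UMI before thinning, and 0% and 0.407% after it.

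Apart from the class II genes, the members were compared with the C1q macrophages low in class II over 8830 genes with at least 50 UMIs in each library, summed over both groups of cells. This is the contrast that the rule itself made, so that its values are a description. Of these genes, 30 (0.34%) were at least 2-fold higher in the members in both libraries and 53 (0.6%) were at least 2-fold lower in both. The median log2 ratio over all genes was -0.02 on each day. On day 1 alone 103 genes were at least 2-fold higher and 211 lower, and on day 3 alone 167 and 283.

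Among the genes higher in both libraries were Clec4b1 and Itgax, which encode surface receptors of myeloid cells. Clec4b1, a C-type lectin receptor, was at 74.7 CPM in members on day 1 (63.9 to 86.9) and 94.9 on day 3 (82.3 to 109), against 10.5 and 6.46 in the low cells. Its log2 ratios were 2.83 and 3.88, and its UMIs came from 54 and 71 members. Itgax, which encodes the integrin CD11c, was at 55.2 CPM on day 1 (45.9 to 65.8) and 54.7 on day 3 (45.3 to 65.6), against 11.4 and 12.9. The level of Itgax in members was thus the same on both days within its interval, with a log2 ratio of -0.01 (-0.39 to 0.36). Jaml, an adhesion molecule of leukocytes, was at 10.7 and 6.55 CPM against 1.97 and 1.06.

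Tnip3, an inhibitor of NF-κB signaling, was at 136 CPM in members on day 1 (121 to 152) and 171 on day 3 (154 to 190), against 49.5 and 34.2. Batf3, a transcription factor known from conventional dendritic cells, was at 8.45 against 2.62 CPM on day 1 and 17.8 against 6.46 on day 3, from 16 and 28 members. Tmem176a and Tmem176b, membrane proteins of myeloid cells, were at 71.2 against 23.7 and 93.4 against 33.4 CPM on day 1, and at 104 against 40.1 and 178 against 56.8 on day 3. AA467197, a small protein also known as NMES1, was at 98.3 against 35.1 and 46.3 against 10.1. The class I-like genes H2-Q6 and H2-Q7 were also at least 2-fold higher on both days, with H2-Q7 at 32.9 against 15.7 and 26.7 against 12.5 CPM, although near-identical class I genes may share their reads.

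Other genes at the top of this list rested on a few cells. Mmp12, an elastase of macrophages, was at 238 CPM in members on day 1 and 135 on day 3, against 13.4 and 44.4, but its UMIs on day 1 came from 8 of 156 members, and 1 cell held 37.9% of them on day 1 and 44.3% on day 3. Its direction on day 3 turned with the class II limit, from a log2 ratio of 1.61 to -0.84 at 1%, because 259 of its UMIs lay in members with 0.5 to 1% (251 CPM), and members at 1 to 2% and above 2% were at 25.4 and 29.5 CPM. Ccl5, a chemokine, was at 48.9 against 15 and 11.7 against 1.78 CPM, from 7 and 4 members. Ear2, a ribonuclease of the eosinophil family, was at 22.7 against 1.90 and 13.6 against 1.90 CPM, from 14 and 12 members.

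**Figure D2:**
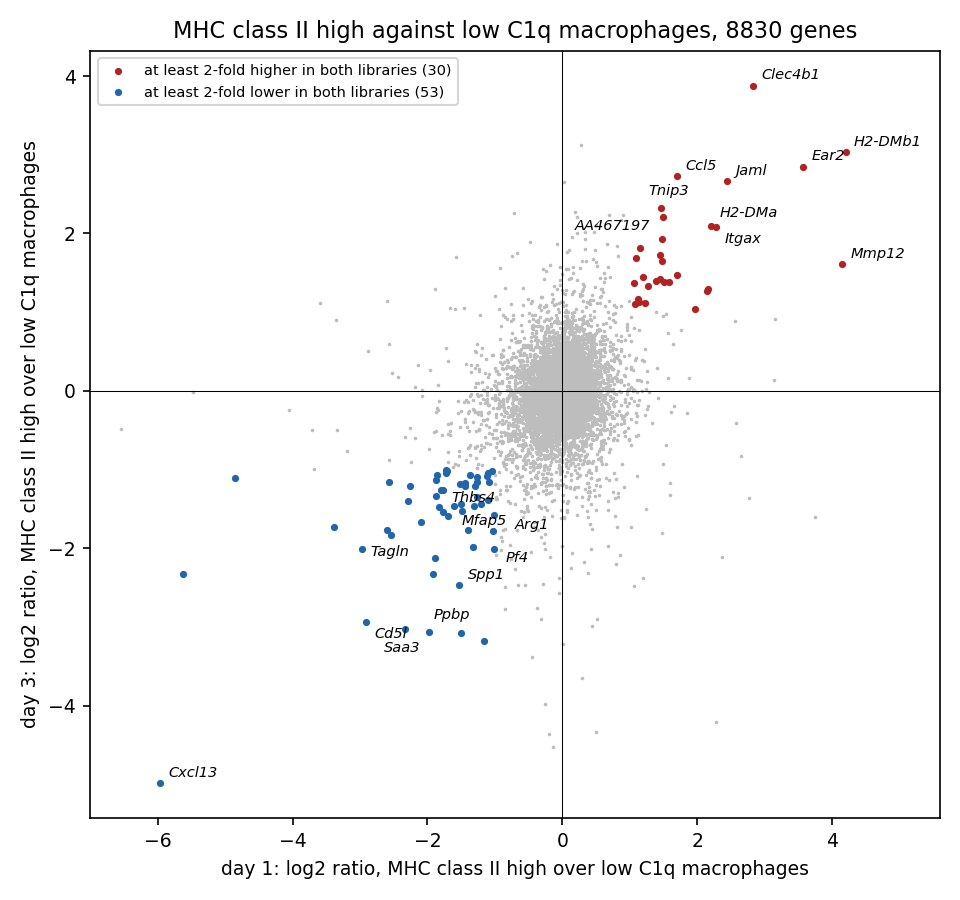
Each point is 1 of 8830 genes, with the log2 ratio of MHC class II high over low C1q macrophages on day 1 on the x axis and on day 3 on the y axis; the genes of the rule are left out. The 30 genes in red and the 53 in blue were past 2-fold in the same direction in both libraries, with H2-DMb1 (4.20 and 3.03) and Clec4b1 (2.83 and 3.88) at the upper right, while Arg1 is a grey point because its day 1 ratio was -0.89.

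Spp1, Pf4 and Ppbp, which encode secreted proteins, were at least 2-fold lower in the members than in the low cells on both days. Of the 31 inflammatory genes compared, 3 were lower on both days (Ppbp, Pf4 and Saa3) and 0 higher. On day 1 alone 0 were higher and 7 lower, with a median log2 ratio of -0.44. On day 3 alone 3 were higher and 4 lower, with a median of 0.16. Over all 8830 genes, 103 were higher and 211 lower on day 1, and 167 and 283 on day 3. Spp1, which encodes osteopontin, was at 2182 CPM in members on day 1 (2121 to 2243) and 2097 on day 3 (2036 to 2159), against 6299 and 11605 in the low cells. Its log2 ratios were -1.53 and -2.47. Pf4 (CXCL4) was at 2675 CPM on day 1 and 617 on day 3, against 5425 and 2489. Ppbp (CXCL7) was at 140 against 549 CPM on day 1, and at 0.468 against 5.83 on day 3, where it was left in 1 member.

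Saa3, an acute-phase protein, was at 40.5 against 205 CPM on day 1 and 1.87 against 17.1 on day 3. Cd5l, a secreted inhibitor of apoptosis made by macrophages, was at 1.33 against 11.7 and 7.95 against 62.4. Arg1, which converts arginine to ornithine, was at 816 against 1514 CPM on day 1, less than 2-fold lower, and at 8.89 against 34.3 on day 3. Cxcl13, a chemokine for B cells, had 0 UMIs in the members on both days, against 13.8 and 7.38 CPM in low cells, which makes it at least 10.4-fold lower on day 1 and at least 5.26-fold lower on day 3 when 3 UMIs are taken as the floor for all members of a library.

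Several of the genes lower in the members are made by stromal cells. Mfap5, a microfibril protein of fibroblasts, was at 24.0 against 74.0 CPM and 30.4 against 84.8, and it was at 1044 and 758 CPM in the Pdgfra cells. Tagln, an actin-binding protein of smooth muscle, and Thbs4, a matrix protein of tendon and muscle, were of the same kind, as was Cxcl13, at 288 and 64.1 CPM in the Pdgfra cells. At least 10 UMIs of the collagen genes and Dcn were found in 3.21% and 3.42% of members and in 3.76% and 8.81% of the low cells, and the whole list of 10 stromal progenitor genes, none of them at 0, summed to 615 and 1849 CPM in members and 796 and 3350 in low cells. When cells with 5 or more of those UMIs were left out of both groups, the number of genes lower in both libraries was 17 in place of 53, of which 12 were shared, and Mfap5, Thbs4, Tagln and Cxcl13 were no longer lower in both. The number higher in both was 30 again, of which 24 were shared, and Spp1 stood at -1.56 and -2.68, Pf4 at -1.08 and -2.04 and Cd5l at -2.93 and -2.94 on the log2 scale.

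Some differences from the low cells were seen on 1 day only. On day 3, 8 of 13 genes of the resident-like list were at least 2-fold lower in the members and 1 was higher, whereas on day 1 only Ccl24 was lower. Over all 8830 genes, 283 were lower and 167 higher on day 3, and 211 and 103 on day 1. Folr2, a folate receptor of resident macrophages, was at 78.6 CPM in members on day 3 (67.1 to 91.4) against 307 (302 to 312), and at 37.8 against 65.2 on day 1. Stab1, a scavenger receptor, was at 113 against 410 CPM on day 3 and at 134 against 167 on day 1. Clec10a, a lectin for galactose sugars, went the other way on day 3, at 37.9 against 18.2 CPM.

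Of the 29 genes of the Gpnmb and Spp1 programme of lipid-laden and lysosomal macrophages, 10 were at least 2-fold lower in the members on day 3 and 1, Mmp12, was higher. The counts over all 8830 genes that day were 283 and 167. Gpnmb, a lysosomal membrane glycoprotein, was at 313 CPM in members on day 3 (290 to 338) against 958 (949 to 968), and at 32.0 against 31.6 on day 1. On day 1 the members next to the limit carried most of it, with 82.8 CPM at 0.5 to 1% of class II RNA, 11.7 at 1 to 2% and 7.95 above 2%. At least 10 UMIs of Gpnmb were found in 12.3% of members (7.47 to 18.8%) and in 42% of low cells on day 3 (39.9 to 44.2%), and after thinning to 3000 UMIs any UMI of it in 24.3% and 54% (6.52% of Pdgfra cells). Ctsl and Ctsd, lysosomal proteases, were at 865 against 2492 and 2544 against 6241 CPM on day 3, and Apoe, a lipid carrier, at 4003 against 8762. On day 1 the same 3 genes were less than 2-fold apart.

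Of the 20 monocyte genes compared, 5 were at least 2-fold higher and 1 lower in the members on day 3, and 1 was higher and 2 were lower on day 1. The counts over all 8830 genes were 167 higher and 283 lower on day 3, and 103 and 211 on day 1. Ccr2, the receptor that brings monocytes into injured muscle, was at 432 CPM in members (404 to 460) against 161 in low cells (157 to 165) on day 3, but at 282 against 340 on day 1. Ly6c2 was at 203 against 86.7 CPM on day 3, Plac8 at 401 against 127 and Ms4a4c, a tetraspanning membrane protein, at 326 against 122. On day 1 these 3 genes were at 54.7 against 61.1, 184 against 145 and 160 against 150. Ly6c2 was highest on day 3 in the members next to the limit, at 296 CPM with 0.5 to 1% of class II RNA, 149 at 1 to 2% and 71.6 above 2%, the last below the level of the low cells. At a class II limit of 1% its log2 ratio was 0.34 in place of 1.23. Il1b, an inflammatory cytokine, was likewise higher in members on day 3 only, at 538 against 185 CPM, beside 7028 against 6783 on day 1. The difference between the days was not tested.

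A further list held 37 leading genes of a class II high macrophage cluster. It had been chosen on samples that included these libraries and is not independent evidence of direction. Outside the rule, 32 of its genes had enough UMIs. Of these, 6 were at least 2-fold higher in the members on both days (H2-DMa, H2-DMb1, Tmem176a, Tmem176b, Clec4b1 and Cd72) and 0 were lower on either. Cd72, an inhibitory receptor for semaphorins, was at 8.01 against 2.99 CPM on day 1 and 86.5 against 32.3 on day 3.

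Because the limit was a choice, the C1q macrophages were divided by the class II share of their UMIs into 6 bins, of which the upper 3 were members. H2-DMb1 was at 11.3 CPM in day 1 cells without any class II UMI, 28.4 in those with 0.05 to 0.5%, 59.1 at 0.5 to 1%, 260 at 1 to 2% and 537 above 2%. The day 3 values were 25.4, 57.9, 124, 263 and 472 CPM. Itgax and Clec4b1 were also highest in the top bin on both days. Itgax was at 10.4 CPM in the lowest bin and 76.3 in the highest on day 1, and at 8.87 and 84.2 on day 3.

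Spp1 ran the other way, though not at every step on day 1, from 7085 CPM in the lowest bin to 1418 in the highest on day 1, and from 14581 to 1021 on day 3. Pf4 was at 6370 CPM in the lowest bin and 674 in the highest on day 1, and was still at 4563 CPM in the bin of 0.5 to 1%. Gpnmb decreased with class II RNA on day 3, from 1151 to 54.8 CPM, and Folr2 from 371 to 21.1. Ccr2 was ordered only on day 3, from 134 CPM in the lowest bin through 340 at 0.5 to 1% to 640 above 2%, whereas on day 1 it lay between 251 and 362 CPM. Fcgr1 stayed between 342 and 471 CPM on day 1 and between 234 and 319 on day 3. Adgre1, another macrophage marker, was lower in the top bin than in the lowest on both days. It was at 210 CPM in the lowest bin and 92.2 in the highest on day 1, and at 388 and 232 on day 3. Cells of the top bin were the shallowest on each day, with a median of 9608 UMIs on day 1 and 11560.5 on day 3, while the deepest bins had 13811 and 19494. The part of depth in these levels was not tested.

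**Figure D3:**
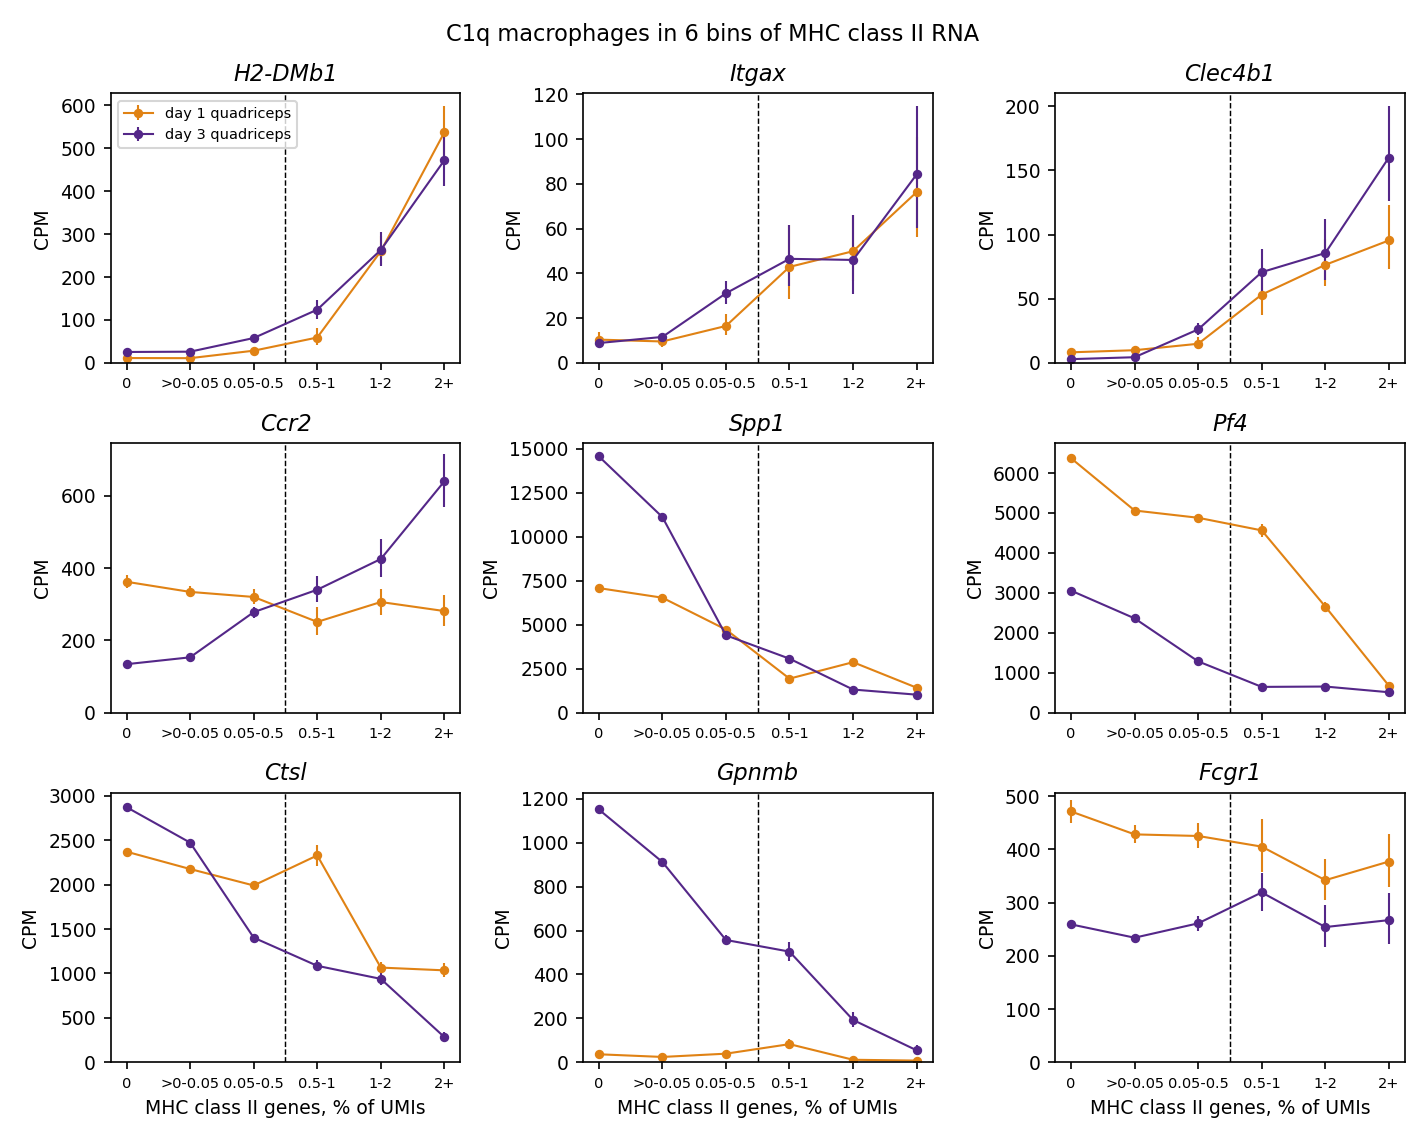
Levels in CPM (y axis) of 9 genes in C1q macrophages divided into 6 bins by the percent of UMIs from class II genes (x axis), for day 1 (orange) and day 3 (purple), with exact 95% Poisson intervals; the dashed line is the limit of 0.5%, and bins to its right are members. H2-DMb1, Itgax and Clec4b1 are highest in the top bin on both days, Spp1 and Pf4 are lowest there, and Ccr2 is ordered on day 3 only, from 134 to 640 CPM.

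Other cells of the muscle with class II RNA differed from the members in what else they carried. The Cd209a cells (67 on day 1 and 106 on day 3), which passed the class II limit with at least 1 UMI of the lectin Cd209a and none of Ccr7, had more class II RNA, with H2-Aa at 7432 and 7438 CPM, H2-DMb1 at 1021 and 704 and Ciita at 33.5 and 82.9. Klrd1, a lectin of NK cells and some dendritic cells, was detected in 58.2% and 77.4% of them but in 1.28% and 4.11% of members. At 3000 UMIs per cell the shares were 48.4% and 51.9% against 0% and 1.39%. Flt3, the receptor that dendritic cells need to develop, was detected in 47.2% of Cd209a cells and 3.42% of members on day 3 (27.4% and 2.08% after thinning), and in 0.203% of Pdgfra cells. Clec4b1 was about as high in the Cd209a cells as in the members on day 1, at 79.1 against 74.7 CPM, and higher on day 3, at 175 against 94.9.

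The members had to hold C1q RNA and no Cd209a UMI, whereas no C1q limit was set for the Cd209a cells. Values of this contrast are therefore a description. The part of this choice in C1qc and the identity genes was not tested. Of the 18 genes of macrophage identity, 8 were at least 2-fold higher in the members than in the Cd209a cells on day 1 and 1 lower. On day 3, 11 were higher and 0 lower. The exception on day 1 was Cx3cr1, at 11.6 CPM in members against 24.4, which was at 180 against 82.1 on day 3. Spi1, a transcription factor of myeloid cells, was about equal, at 400 against 434 and 410 against 424. Csf1r was at 138 and 161 CPM in them against 273 and 341 in members, and Fcgr1 at 160 and 123 against 371 and 288. C1qc was detected in 22.4% and 18.9% of Cd209a cells, or 17.2% and 13.2% after thinning, beside 78.6% and 84% of thinned members and 1.35% and 1.83% of thinned Pdgfra cells. On day 1 the Cd209a cells held a median of 12492 UMIs, against 8832.5 on day 3. A further 213 cells on day 1 and 171 on day 3 passed the class II limit, had no UMI of Cd209a or Ccr7 and had fewer than 5 UMIs of C1qa and C1qb. In these, Spp1 was at 1968 and 320 CPM.

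The Cd163/Lyve1 cells (167 and 73) were C1q cells that failed the last clause, taken at any class II level. They had little class II RNA, with H2-Aa at 148 CPM on day 1 and 24.4 on day 3. They were richer than the members in Folr2, at 422 and 530 CPM against 37.8 and 78.6, in Mrc1, the mannose receptor, at 1083 and 1548 against 288 and 266, and in Pf4, at 14761 and 4373 against 2675 and 617. The last clause by itself removed 14 cells with both class II and C1q RNA on day 1 and 1 on day 3. The other Cd163/Lyve1 cells were also under the class II limit.

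**Figure D4:**
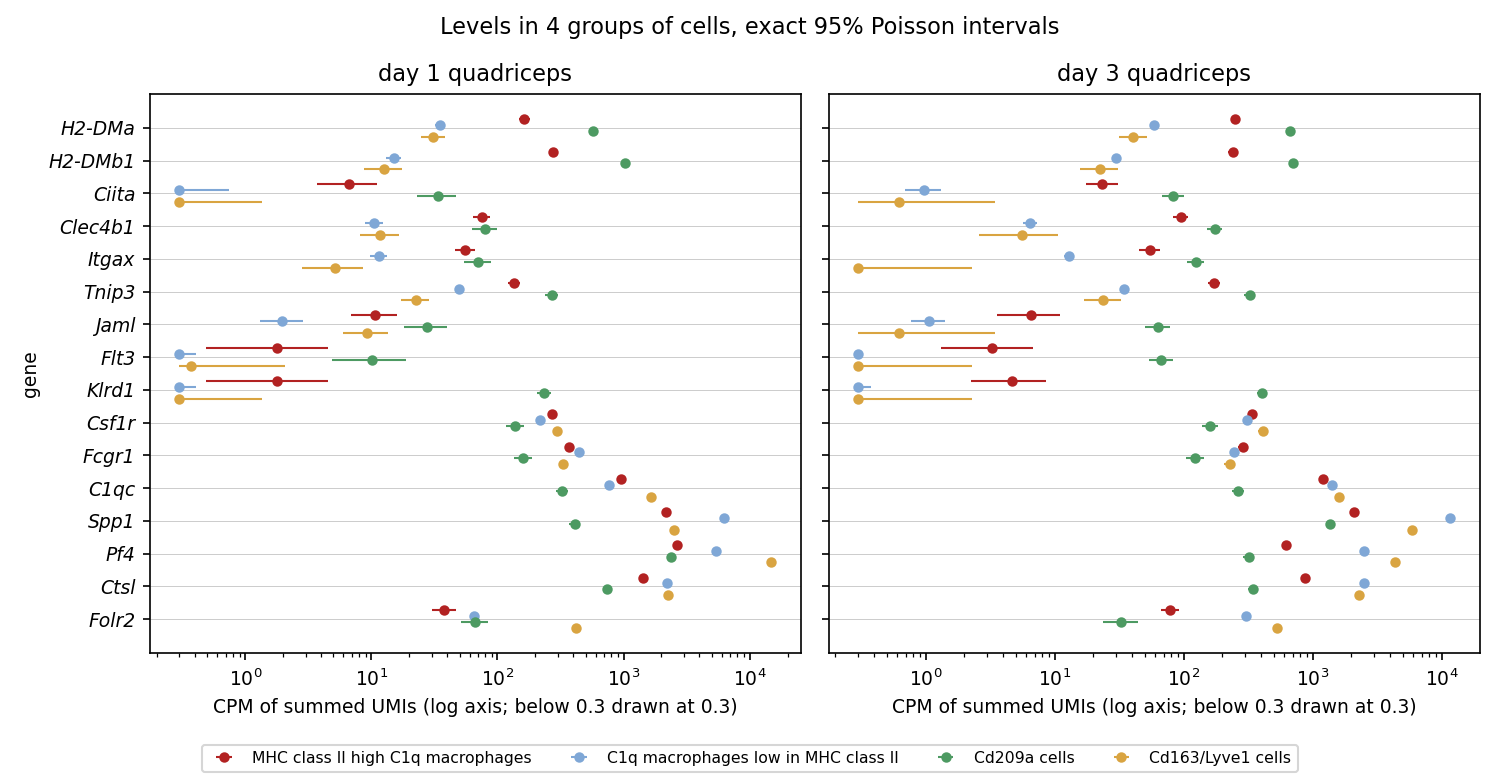
Levels in CPM (x axis, log scale) of 16 genes in the members (red), C1q macrophages low in class II (blue), Cd209a cells (green) and Cd163/Lyve1 cells (yellow) on day 1 (left) and day 3 (right), with exact 95% Poisson intervals. The members lie between the low cells and the Cd209a cells for H2-DMa, H2-DMb1, Ciita and Tnip3, and lie with the macrophages for Csf1r, Fcgr1 and C1qc. All groups but the Cd209a cells were chosen to hold C1q RNA.

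Between day 1 and day 3 the members themselves differed in many genes. Of 6693 genes with at least 50 UMIs in the members of both libraries together, 916 (13.7%) were at least 2-fold higher on day 3 and 278 (4.15%) at least 2-fold lower. The median log2 ratio was 0.23, so that on this scale genes of the day 3 members were on the whole a little higher. With edgeR's TMM scaling the median was -0.13, and 485 of the same 6693 genes were higher and 543 lower. Each list is therefore given under both scalings, and its TMM counts are to be read beside these.

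Inflammatory genes were lower on day 3, with 26 of 31 at least 2-fold lower (28 under TMM) and 0 higher. Il1b was at 7028 CPM on day 1 (6919 to 7138) and 538 on day 3 (508 to 570). The neutrophil attractants Cxcl2 and Cxcl3 were at 16469 and 1479 CPM on day 1 and 3299 and 32.3 on day 3, and the monocyte attractant Ccl2 at 2079 and 978. Il1a was at 230 CPM on day 1 and 4.68 on day 3. Arg1 was at 816 CPM on day 1 (779 to 854) and 8.89 on day 3 (5.35 to 13.9), a log2 ratio of -6.48. Nlrp3, the sensor of the inflammasome, was at 242 and 92.1 CPM, and Ptgs2, which makes prostaglandins, at 878 and 174.

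S100a9 and S100a8, alarmins abundant in neutrophils, had log2 ratios of -8.83 and -5.55. S100a9 was at 530 CPM in the members on day 1, of which 1 cell held 27.7%, and at 0.935 on day 3. The neutrophil list of 12 genes summed to 1322 CPM in members on day 1 and 69.7 on day 3, with 3 genes at 0 on each day, and in the low cells to 1287 and 137. The part of RNA from neutrophils in these values was not tested.

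Genes induced by type I interferon were higher on day 3, with 20 of 24 genes at least 2-fold higher (17 under TMM) and 0 lower. Ifit3, an antiviral protein, was at 2.22 CPM on day 1 (0.722 to 5.19) and 65.5 on day 3 (55.1 to 77.3), and its UMIs came from 4 and 30 members. Rsad2 (viperin) was at 7.56 and 128 CPM, Irf7, the transcription factor that amplifies the response, at 57.4 and 164, and Bst2 (tetherin), found in most members, at 161 and 440. Isg15 was at 119 and 256 CPM, of which 1 cell held 25.7% on day 1. Of 17 genes induced by interferon gamma, 11 were at least 2-fold higher and 2 lower (6 and 3 under TMM). Cxcl10, a chemokine for activated T cells, was at 73.8 CPM on day 1 and 283 on day 3, while Cxcl9, a chemokine that responds mainly to interferon gamma, had 0 UMIs on day 1 and 1 on day 3.

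Few genes of class II presentation passed 2-fold between the days. Over all genes, 13.7% were at least 2-fold higher on day 3 and 4.15% lower, and the members of both days had passed the same class II limit. Of the 13 genes of class II presentation outside the rule, 1 was at least 2-fold higher on day 3 (Ciita, log2 ratio 1.78, 0.95 to 2.75) and 1 was lower (Cd83, a membrane protein that keeps class II at the surface, at 435 and 214 CPM). Under TMM, 1 was higher and 2 were lower. Of 17 class I genes, 4 were at least 2-fold higher, among them the peptide transporter Tap1, at 31.1 and 72.5 CPM, and the immunoproteasome subunit Psmb8, at 160 and 327. Under TMM 1 was higher, beside 485 of 6693 over all genes. Costimulatory genes were mixed, with 4 of 13 higher and 5 lower (2 and 6 under TMM). Cd86 was at 184 CPM on day 1 (166 to 202) and 76.7 on day 3 (65.4 to 89.4), and Cd80 at 42.3 and 10.8, whereas Cd40 was at 10.2 and 23.9.

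Of 18 macrophage identity genes, 2 (Mertk and Cx3cr1) were at least 2-fold higher on day 3 and 1 lower. These shares were close to those over all genes (13.7% and 4.15%). Under TMM 1 was higher and 2 were lower. Cx3cr1, the fractalkine receptor, was at 11.6 CPM on day 1 (7.56 to 16.9) and 180 on day 3 (162 to 198). In the Gpnmb and Spp1 programme, Trem2, a lipid receptor, was at 132 and 495 CPM. Gpnmb was at 32.0 and 313 CPM, and Syngr1, a vesicle membrane protein of the same programme, at 7.12 and 149. Of 28 genes of the Gpnmb and Spp1 programme, 6 were at least 2-fold higher and 1 lower, and Spp1 was at 2182 and 2097 CPM. Under TMM 4 were higher and 4 lower, beside 485 and 543 of 6693 over all genes. Of 15 monocyte genes, 3 were higher (Ly6c2, Plac8 and Ms4a4c) and 8 lower (1 and 9 under TMM), among them Fn1, fibronectin, at 1993 and 388 CPM. Cd14, a receptor for lipopolysaccharide and the gene of macrophage identity that was lower, was at 3400 and 440 CPM. Retnla, a product of alternatively activated macrophages, was at 158 CPM on day 1 and 1.40 on day 3, but 9 members held all its day 1 UMIs and 1 of them 42.5%.

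Genes of the cell cycle were at least 2-fold higher on day 3 in 19 of 19 cases (17 under TMM). Pclaf, a clamp-associated factor of DNA replication, was at 0.445 CPM on day 1 and 115 on day 3 (101 to 130). Birc5, which is needed for chromosome segregation, had 0 UMIs on day 1 and was at 66.9 CPM on day 3, at least 50.1-fold higher when 3 UMIs are taken as the floor for the day 1 members. Mki67 was at 2.22 and 76.2 CPM, and Top2a at 3.11 and 102. At least 20 UMIs of the 22 genes of the whole list were found in 0 of 156 members on day 1 (exact interval 0 to 2.34%) and in 34 of 146 on day 3 (23.3%, 16.7 to 31%). Among the low cells the shares were 0.967% and 35.7%, at unequal median depths of 12675 and 17433 UMIs, and the part of depth was not tested.

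**Figure D5:**
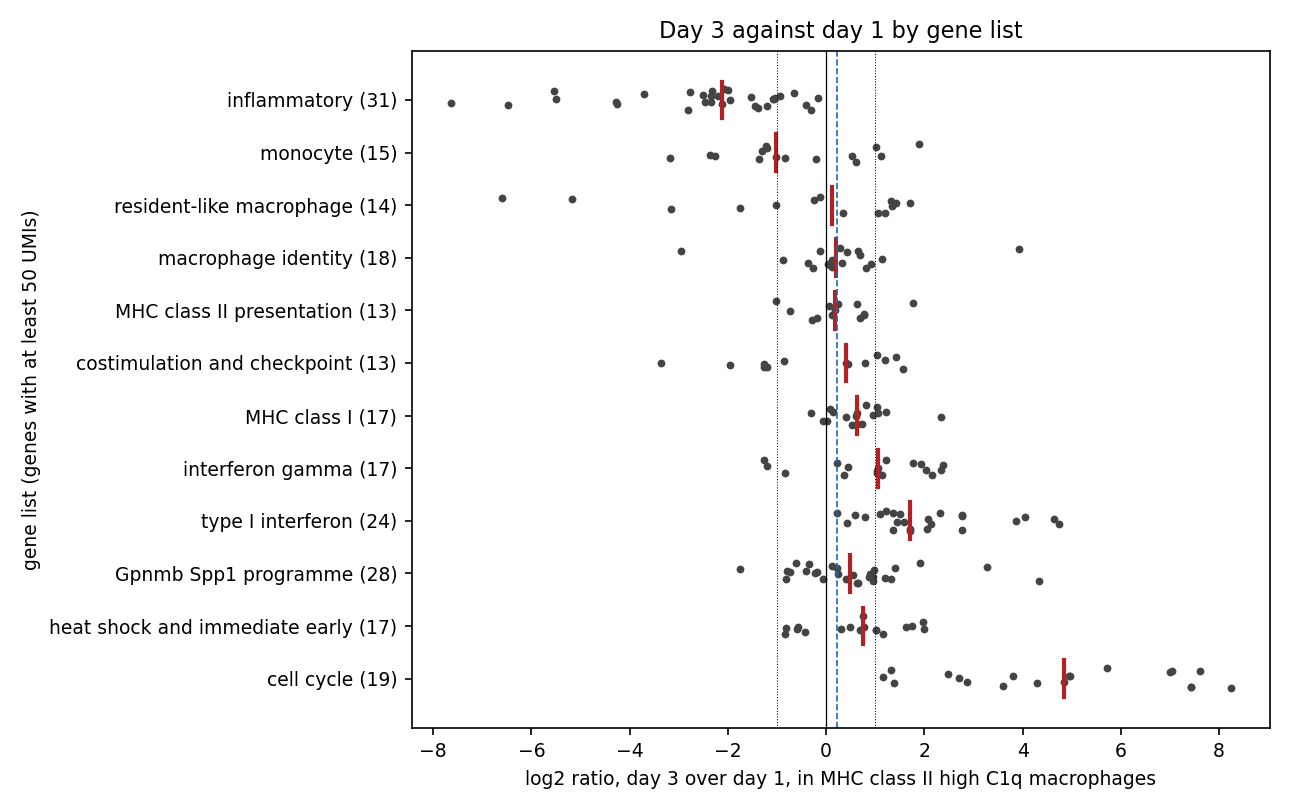
Each point is 1 gene with at least 50 UMIs in the members, placed by its log2 ratio of day 3 over day 1 (x axis) in the row of its list, with the number of genes in parentheses; the red bars are list medians, the dashed blue line is the median of all genes (0.23), and the dotted lines mark 2-fold. The inflammatory list lies to the left (median -2.12), type I interferon (1.70) and the cell cycle (4.84) lie to the right, and class II presentation is centered near the median of all genes (0.18).

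The members also varied among themselves within a day. The inflammatory genes took a median of 4.16% of a member's UMIs on day 1, with cells from 0.776% to 22.1%, and 0.966% on day 3, with cells from 0.135% to 4.1%. The type I interferon genes took 0.174% (0.00893 to 1.87%) and 0.34% (0.022 to 3.49%), so that the highest member of day 3 held several times the median. The spread of the cell cycle genes was small on day 1 (0 to 0.129%) and wide on day 3 (0 to 0.966%, median 0.0496%). By comparison, the macrophage identity genes had a median of 2.12% on day 1 and 1.95% on day 3, and their middle cells lay between 1.57 and 2.72% and between 1.43 and 2.84%.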

How the data were processed

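The authors deposited, for each library, unfiltered 10x Genomics matrices of raw UMI counts per gene and barcode, made with Cell Ranger 5.0.0 on mm10 per the submitters' processing notes (the matrix header names version 4). Cells were sorted by scatter, pooled from 5 mice and cryopreserved before loading. The 7367 (day 1) and 6640 (day 3) barcodes with most UMIs were taken as cells, and those with at least 1000 UMIs, at least 200 genes and at most 7.5% mitochondrial UMIs were kept. The members and all gene lists were chosen with earlier results of these data known. Counts were summed over the cells of a group and given as CPM. With 1 library a day no test was run. A gene was called when its ratio, with 0.5 added to each sum, passed 2-fold, among genes with at least 50 UMIs summed over both groups compared (in each library for the comparison with low cells). Ratio intervals are exact binomial ones. Named genes were those of the lists, and the 10 highest and 10 lowest of each comparison by the interval bound nearest 0. A floor of 3 UMIs replaced counts of 0 in bounds. Shares were also taken after thinning cells to 3000 UMIs. The steps were tested on simulated data. Python 3.11.15 with numpy 2.4.6, scipy 1.17.1, pandas 2.3.3 and scanpy 1.11.5 was used, and edgeR 4.0.16 in R 4.3.3 for TMM factors. Promoters are from RefSeq on GRCm38.p6. Results that need some genes are not reported here.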

Additional observations from a re-analysis of the deposited data

Results flagged for a closer look

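In 8 of the named genes the ratio of the members to the C1q macrophages low in class II had opposite signs on the 2 days, beyond both counting intervals and by at least 2 on the log2 scale. The difference between the days was not tested, since each day is 1 library. Fcrls, a receptor of the Fc-like family found on resident macrophages, had a log2 ratio of 0.81 on day 1 and -1.73 on day 3, and was at 34.7 and 88.9 CPM in members against 19.8 and 296 in low cells. Cd36, a scavenger receptor for lipids, had 0.68 and -1.51, with members at 436 and 129 CPM and low cells at 273 and 368. Timp2, an inhibitor of metalloproteinases, had 0.78 and -1.36. For these 3 genes the low cells were higher on day 3 than on day 1, while the members were higher on day 3 for Fcrls and Timp2 and lower for Cd36.

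Gdf15, a stress-induced cytokine, had a log2 ratio of 1.86 on day 1 and -0.28 on day 3, and 1 member held 37.3% of its day 1 UMIs. S100a9 had 0.29 and -3.64, and G0s2, an inhibitor of lipolysis, 0.68 and -1.39. Both are genes of the neutrophil list, and 1 member held 54.5% of the day 1 UMIs of G0s2. Batf, a transcription factor of the AP-1 family, had -1.0 and 1.2, with members at 15.1 and 26.7 CPM and low cells at 30.7 and 11.7, and Cd177, a glycoprotein of neutrophils and monocytes, had -1.22 and 0.97.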

How the results depend on the processing

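Each day is 1 library, so counting intervals do not cover differences between animals or preparations. The day cannot be told apart from any difference in kit between the libraries. No paired analysis was possible because each group is 1 sample. The cause of the changes below was not tested. The main values were member shares of 2.32% on day 1 and 3.16% on day 3, 916 genes higher and 278 lower on day 3, and 30 higher and 53 lower in members than in low cells on both days. Calling cells at 10% of the 99th percentile gave shares of 3.44% and 3.49%. A class II limit of 0.25% gave 3.1% and 4.58% and 11 lower than in low cells, and a limit of 1% gave 1.65% and 1.86%, 538 higher on day 3 and 92 lower than in low cells. Without the highest Scrublet scores 35 were lower than in low cells, and with at least 10 UMIs of C1q 28 were. Thinning to 3000 UMIs gave a day 3 share of 2.64%, 158 higher and 136 lower on day 3, and 11 higher and 9 lower than in low cells. Leaving out cells rich in stromal RNA, chosen after seeing the data, gave a day 3 share of 3.82% and 17 lower. Between the days, TMM gave 485 higher and 543 lower and DESeq2 size factors 492 and 535. Subtracting an ambient profile gave 502 higher than in low cells, and that profile was too large to be used, since it predicted more S100a8 than the day 1 members held. A minimum of 20 UMIs gave 1697 higher on day 3, and 59 and 111 against low cells; a minimum of 200 gave 212 and 155, and 11 and 11; no minimum gave 4387 and 1461, and 1194 and 221.

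Of 161 named genes called between the days, 101 stayed past 2-fold in the same direction under every setting, as did 30 of 51 against low cells on day 1 and 51 of 86 on day 3. The signs that turned were, as log2 ratios, at a class II limit of 0.25% on day 3 against low cells C1s1 0.25, C4b 0.03, Cd55 0.44 and Mfap5 0.49, and at 1% Serpina3g -0.9 and Mmp12 -0.84. With thinning they were Folr2 -0.24, Igf1 -0.7 and Batf3 -0.1 between the days, Il6 0.49 and Mcm5 0.52 against low cells on day 1, and Cd55 2.35, Fscn1 0.16 and Tagln 0.77 on day 3. Without cells rich in stromal RNA they were Tagln 0.98 and Thbs4 0.84 on day 1, and Serping1 0.75, Cd55 2.3, Cxcl9 0.27, Mfap5 0.43, Tagln 0.55 and Cxcl13 0.72 on day 3. With the ambient profile they were Igf1 -3.39, Chil3 0.5, Hp 5.52 and Ccl7 0.08 between the days. No value was given where both sums were at or under 3 UMIs, for 1 gene at 1%, 11 with thinning, 1 without stromal RNA and 46 with the ambient profile.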

Other observations

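Lpl, Abcg1, Pparg and Pltp, which act in lipid handling and were picked from the lists after their values were seen, were at least 2-fold higher in the members than in the low cells on day 1 and less than 2-fold apart on day 3. Lpl, the lipase that frees fatty acids from lipoproteins, was at 410 CPM in members (384 to 437) against 111 in the low cells (106 to 117) on day 1, and at 800 against 716 on day 3. Across the bins of class II RNA on day 1, Lpl went from 91.6 CPM in cells without a class II UMI to 526 in those above 2%, while on day 3 it was at 724 CPM in the lowest bin, 1132 at 0.5 to 1% and 320 above 2%. Abcg1, a cholesterol exporter, was at 21.8 against 7.14 CPM on day 1 and at 60.3 against 73.0 on day 3, and Pparg, a nuclear receptor for fatty acids, at 18.7 against 8.97 and 15.4 against 17.2. Pltp, a phospholipid transfer protein, was at 106 against 11.9 CPM on day 1 and 237 against 125 on day 3. The difference between the days was not tested.

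The class I genes H2-K1 and B2m were higher in the members than in the low cells on both days, short of 2-fold. H2-K1 was at 700 against 537 CPM on day 1 and 1073 against 678 on day 3, and B2m, the light chain shared by class I molecules, at 777 against 589 and 1356 against 1033. Heat shock genes were higher in the members on day 3, with Hspa1b at 395 CPM on day 1 and 1582 on day 3 and Hspa1a at 436 and 1339; the near-identical coding parts of these genes may share reads. Of the 17 genes of the heat shock and immediate early list, 7 were at least 2-fold higher on day 3 and 0 lower (4 and 2 under TMM).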
